A study of Homo sapiens with 12 samples.

Results

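The RNF and TRIM genes of A673 cells were followed over 4 h of actinomycin D. Members were chosen by name, as the gene symbols made of RNF and a number, with or without a final A or B, or of TRIM and a number. The rule found 150 of the 26334 symbols in the count table, 84 RNF and 66 TRIM genes. Ligases of the same kind with other symbols, such as PML, MID1 and RING1, were therefore not members. A673 is an established Ewing sarcoma cell line, and the samples carry the name shA673-1c. All cells were grown in the same medium with blasticidin and zeocyn, seeded in 6-well plates and given 5 µM actinomycin D for 0, 1, 2 or 4 h, with 3 biological replicates per time and 12 poly(A)-selected libraries in all. The 4 times were the only groups, and no untreated course is among the libraries used here.

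RING ubiquitin ligases hold a ubiquitin-loaded E2 enzyme next to a substrate through a zinc-binding RING domain, so that ubiquitin passes to the substrate and marks it for the proteasome or for another fate. RNF symbols were given to RING proteins of many architectures, from membrane proteins of the endoplasmic reticulum to nuclear histone ligases. TRIM proteins share an N-terminal block of RING, B-box and coiled coil, and differ in the C-terminal part that binds the target. Some TRIM proteins, TRIM14, TRIM16, TRIM44 and TRIM66 among them, lack the RING itself. Actinomycin D stops transcription, so the level of an mRNA relative to all others then follows how fast it is lost.

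Counts per gene were divided by TMM-scaled library totals and are given as CPM, in which every library has the same scaled total. A slope is the fitted change of the log2 level per hour in edgeR's quasi-likelihood model over all 12 libraries, with its SE, and a half-life is -1 divided by the slope. A gene is said to fall or rise where the adjusted p of the slope (Benjamini-Hochberg over 12032 tested genes) was below 0.05. Slopes are relative to the bulk of transcripts, since no spike-in is part of the scale, and less RNA per cell cannot be told apart from fewer cells. Library totals ranged from 9147018 to 11194705 counts. MYC, a short-lived mRNA, was at 6.23% of its 0 h level at 4 h. GAPDH and ACTB, usual reference genes, rose at 0.15 ± 0.013 and 0.12 ± 0.025 log2 per hour on this scale. Of 11 Ewing sarcoma genes, 10 had a mean of at least 10 counts, including the fusion partners EWSR1 and FLI1, while CD99 was listed at 0 in every library although Ewing sarcoma cells are known for it. Of 14 markers of blood, endothelial, epithelial and liver cells, 1 (HBB) had a mean of at least 10 counts.

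Loss relative to the bulk of transcripts was the most frequent course of the ligase mRNAs. A mean of at least 10 counts was reached by 99 members, 63 RNF and 36 TRIM genes. Of these, 50 fell (50.5%), where 32.1% of all tested genes fell. The 17 members that rose (17.2%) compare with 30.7% of all tested genes, and 32 members were called in neither direction. RNF genes gave 31 falling, 12 rising and 20 uncalled members, and TRIM genes gave 19, 5 and 12. RNF genes had a median slope of -0.062 log2 per hour and TRIM genes one of -0.14, beside 0.0093 in the whole table. Fitted within each replicate alone, the RNF median was -0.050, -0.095 and -0.073 and the TRIM median was -0.12, -0.14 and -0.12, so TRIM genes had the lower median in each replicate. With the replicate number as a block, 55 members fell and 20 rose, where 34.8% and 36.2% of all tested genes did. Every one of the 50 falling members also fell with library totals and with GAPDH plus ACTB as the scale. Both scales lower the slopes, with 59 and 83 members falling, so they cannot test the falls. Of the 17 rising members 7 rose with library totals and 0 with GAPDH plus ACTB (edgeR, with 1 member of 99 at an unadjusted p below 0.05). On the scale of GAPDH plus ACTB 12 of the 17 had negative slopes, and 9 of them were called as falling (RNF10, RNF11, RNF167, RNF181, RNF44, RNF7, TRIM28, TRIM41 and TRIM44). The rises below are therefore rises relative to the bulk of mRNAs. The counts by class and by gene list that follow stand beside the same 32.1% falling and 30.7% rising of all tested genes.

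Half-lives of the falling members ran from 1.22 to 20.1 h in the RNF genes (median 3.76 h) and from 1.53 to 9.90 h in the TRIM genes (median 4.14 h). They hold for the TMM scale only and would be shorter with GAPDH plus ACTB, where slopes are lower. The longest, that of RNF115, rests on a call lost in 9 of the 12 fits without 1 library. Of the falling RNF genes, 17 of 31 had a half-life under 4 h, and of the falling TRIM genes 8 of 19 did. The falls were spread over many genes. The summed RNF level went down, while the summed TRIM level moved little. Summed RNF mRNA went from 2982 ± 31.2 CPM at 0 h to 2636 ± 49.6 CPM at 4 h, and summed TRIM mRNA from 2244 ± 38.0 to 2155 ± 103 CPM (mean ± SD, n = 3). One abundant rising member, TRIM28, made up 33.0% of all TRIM counts at 0 h and 44.0% at 4 h. Without it the TRIM sum went from 1504 ± 23.1 to 1207 ± 38.1 CPM, with 35.5% and 38.2% of TRIM counts in TRIM28 at 1 and 2 h. Transcript length matters when levels of different genes are compared. In CPM per kb of transcript at 0 h the 3 highest RNF genes were RNF187 (73.7 ± 3.49), RNF10 (54.2 ± 0.934) and RNF181 (53.0 ± 0.927), and the 3 highest TRIM genes were TRIM28 (219.8 ± 6.21), TRIM44 (33.8 ± 1.25) and TRIM27 (29.4 ± 2.16). Of these 6, TRIM27 fell and the other 5 rose.

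**Figure D1:**
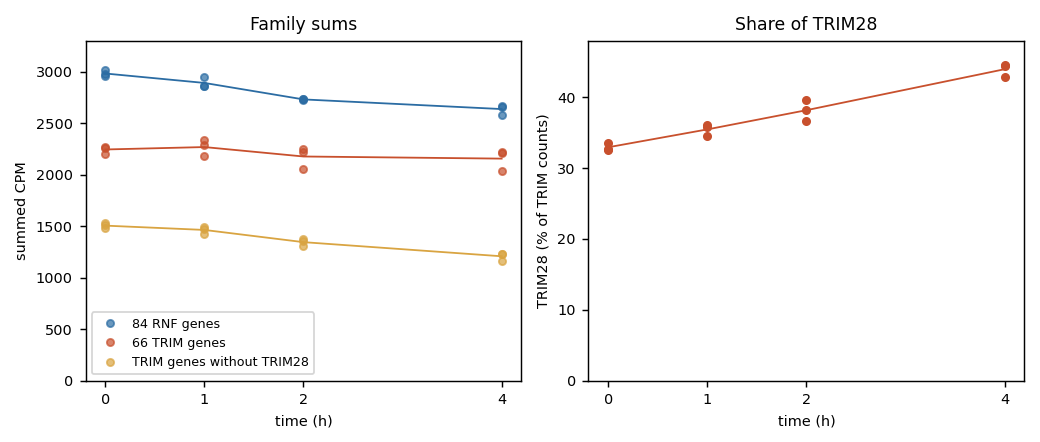
Left, summed CPM of all RNF genes, all TRIM genes and the TRIM genes without TRIM28 in each of the 12 libraries (points) with the mean at each time (lines). Right, share of TRIM counts that came from TRIM28, which went from a mean of 33.0% at 0 h to 44.0% at 4 h.

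The 3′ untranslated region (UTR) is where many factors that set mRNA stability bind. Pumilio proteins bind the 8-base RNA word UGUANAUA and recruit enzymes that shorten the poly(A) tail. This word, searched as TGTANATA on the transcript strand, stood in the 3′ UTR of 29 of 50 falling members (58.0%), 8 of 32 uncalled members (25.0%) and 3 of 17 rising members (17.6%). Among all tested genes with a coding transcript the shares were 45.6%, 31.7% and 16.4%, and 31.4% over all 3 classes. The order of the shares was thus the same in the members as in the whole table. Canonical transcripts of GENCODE version 44 on GRCh38 were used and were found for all 99 members; the count table has no coordinates. For members whose results are given below, 30 bases around a site are printed with the word in capitals, first for 8 falling genes and then for 3 rising ones.
RNF19B: gtgtcaaagagTGTACATAtgtatgtgtgt
TRIM32: ttctttcagagTGTAGATAtctacccaggt
TRIM13: aatctactatcTGTATATActatttgtatc
RNF146: tataggcagtgTGTATATAataaacatgta
TRIM24: ttgaataaccaTGTACATAtttttaaaagt
RNF111: attagctagatTGTACATActtgcagattt
RNF168: atatatttaggTGTAAATAtatcacatata
RNF4: ccttttttcaaTGTACATAgttcaactctt
TRIM44: accctgcaaggTGTAAATAtttatgacgag
RNF187: gcatccttgtgTGTAGATAaattagtcgac
RNF44: caaagtcttacTGTATATAactccaggtga
Counted from the base after the stop codon, the word lies at bases 276 to 283 of a 3′ UTR of 357 bases in RNF19B (chromosome 1, 32936449 to 32964809, minus strand). In TRIM32 (chromosome 9, 116687305 to 116701299, plus strand) it lies at bases 1154 to 1161 of a 3′ UTR of 1595 bases, and in RNF146 (chromosome 6, 127266864 to 127288562, plus strand) at bases 840 to 847 of a 3′ UTR of 869 bases. RNF168 (chromosome 3, 196468783 to 196503768, minus strand) has it at bases 2736 to 2743 of a 3′ UTR of 3036 bases. The site of RNF111 (chromosome 15, 58987663 to 59097419, plus strand) covers bases 815 to 822 of a 3′ UTR of 2519 bases. TRIM13, TRIM24 and RNF4 each hold 2 such words and TRIM44 holds 4, of which 1 each is shown. The rising RNF187 and RNF44 hold 1 each, so the word was not limited to members that fell.

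A long 3′ UTR has more room for any word, so the shares were also taken by UTR length. In UTRs of 2 to 4 kb the Pumilio word stood in 11 of 14 falling members, 1 of 6 uncalled and 2 of 6 rising members, with 55.5%, 41.9% and 30.8% among all tested genes of that length. Under 1 kb it stood in 5 of 13 falling members, 0 of 8 uncalled and 0 of 7 rising members, with 23.6%, 12.3% and 5.30% among all genes. At 1 to 2 kb it stood in 4 of 12 falling, 3 of 13 uncalled and 0 of 2 rising members (all genes 38.9%, 29.5% and 17.3%). At 4 kb or more it stood in 9 of 11, 4 of 5 and 1 of 2 (all genes 71.5%, 65.7% and 57.4%). Per kb of 3′ UTR there were 0.339 words in falling members, 0.157 in uncalled and 0.154 in rising members, with 0.308, 0.225 and 0.15 among all genes. By family, the word stood in 21 of 31 falling RNF genes (67.7%) and in 8 of 19 falling TRIM genes (42.1%), beside 45.6% of all falling genes. Among all tested members it stood in 44.4% of RNF and 33.3% of TRIM genes. The median 3′ UTR had 2302 bases in falling RNF genes and 1760 in falling TRIM genes.

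AU-rich elements, built on the pentamer ATTTA, are another known mark of short-lived mRNAs. The pentamer stood in the 3′ UTR of 88.0% of falling, 84.4% of uncalled and 88.2% of rising members, while all tested genes gave 85.5%, 78.0% and 60.1%. The order of shares in the whole table was thus not seen in the members. The median 3′ UTR had 1927, 1542 and 1892 bases in falling, uncalled and rising members and 1896, 1533 and 864 in all tested genes. The pentamer was not taken by UTR length, and whether length accounts for the difference was not tested. The longer AU-rich word TTATTTATT, which contains the pentamer, stood in 6 of 50 falling, 3 of 32 uncalled and 2 of 17 rising members. Among all tested genes with a coding transcript its shares were 13.2%, 10.5% and 6.30%. Few exons went with falling: of 13 members with 1 to 3 exons 9 fell (69.2%, all tested genes 55.3%), of 54 with 4 to 9 exons 26 fell (48.1%, all genes 31.9%) and of 32 with 10 or more exons 15 fell (46.9%, all genes 26.2%). Across the 99 members, Spearman's rho with the slope was -0.28 for the number of Pumilio words, 0.29 for exons per kb and -0.0062 for 3′ UTR length. Over all tested genes the same values were -0.28, 0.45 and -0.27. Genes are not independent replicates and these values are descriptions.

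RNF139 (TRC8), a ligase of the endoplasmic reticulum membrane that acts in sterol regulation and is disrupted in a hereditary kidney cancer translocation, had the steepest fall of all members. Its levels were 39.0, 42.9 and 40.8 CPM at 0 h, 31.2, 36.9 and 32.0 at 1 h, 17.5, 19.4 and 17.7 at 2 h and 4.26, 3.77 and 3.58 at 4 h. The libraries of each time lay below all those of the time before. The slope was -0.82 ± 0.058 log2 per hour, a half-life of 1.22 h (edgeR, adjusted p = 8.19e-09), and 9.47% of the 0 h level was left at 4 h. RNF145, a related ligase of the same membrane, fell more slowly, from 120.3, 127 and 127 CPM at 0 h to 52.5, 55.3 and 55.1 CPM at 4 h, with a slope of -0.30 ± 0.025. Its level was 74.4% of that at 0 h by 1 h and 43.5% by 4 h.

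The ligases of the endoplasmic reticulum membrane gave 5 falling and 0 rising genes of 7 tested (71.4% falling, all tested genes 32.1%). Besides RNF139 and RNF145 these were RNF103 (slope -0.45 ± 0.037), RNF26 (-0.19 ± 0.026) and RNF185 (-0.11 ± 0.029), the last a ligase that degrades faulty membrane proteins. RNF103 had 18.7, 20.4 and 19.2 CPM at 0 h and 5.68, 5.41 and 5.71 CPM at 4 h, without overlap between the times. RNF121 and RNF170 were not called, with slopes of 0.0049 ± 0.024 and -0.0077 ± 0.028. RNF5, the closest relative of RNF185, was listed at 0 in every library, and so the pair could not be compared. Its pseudogene RNF5P1 had a mean of 1.42 counts.

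RING-between-RING ligases pass ubiquitin through a cysteine of their own before it reaches the substrate. Of 8 tested, 5 fell and 0 rose. RNF19B had 18.1, 18.7 and 13.5 CPM at 0 h, 17.3, 17.9 and 15.3 at 1 h, 9.23, 10.1 and 7.93 at 2 h and 1.78, 2.42 and 2.13 at 4 h. Its level at 1 h overlapped that at 0 h, and only the 2 h and 4 h libraries lay below, so the fall came late. The slope was -0.72 ± 0.078 (edgeR, adjusted p = 7.04e-07) and the half-life 1.39 h. Its paralog RNF19A had 20.2, 18.9 and 15.9 CPM at 0 h and 5.33, 3.96 and 3.13 CPM at 4 h and lay below the 0 h libraries from 1 h on, with a slope of -0.56 ± 0.050. RNF144B, a p53-induced ligase, fell at -0.42 ± 0.10, although its replicates were far apart, at 8.64, 6.84 and 2.84 CPM at 0 h and 3.08, 1.84 and 1.12 CPM at 4 h, and the 2 times overlapped. RNF144A was not called, at -0.040 ± 0.034. RNF217 and RNF216 fell at -0.27 ± 0.031 and -0.10 ± 0.019. RNF216 counts may be shared with its copy RNF216P1, which had a mean of 254 counts and a slope of -0.28. RNF31 (HOIP), the catalytic subunit of the linear ubiquitin chain assembly complex, was not called, with 43.5, 40.1 and 37.5 CPM at 0 h and 43.0, 37.2 and 37.8 CPM at 4 h and a slope of -0.021 ± 0.024. RNF14 was not called either, at -0.040 ± 0.020, and fell with the replicate block (edgeR, adjusted p = 0.0220). Of 5 tested genes of linear ubiquitin signalling, 1 fell and 2 rose. RBCK1 and SHARPIN, the partners of RNF31 in the complex, rose at 0.14 ± 0.027 and 0.16 ± 0.022. SPATA2, which joins the complex to the deubiquitinase CYLD, fell at -0.67 ± 0.065.

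Ligases of chromatin and DNA damage gave 7 falling and 0 rising genes of 9 (77.8% falling, all tested genes 32.1%). RNF168, which ubiquitylates histone H2A beside DNA breaks, had 45.7, 51.4 and 46.6 CPM at 0 h, 37.6, 31.8 and 35.1 at 1 h, 21.8, 23.8 and 26.9 at 2 h and 21.1, 19.0 and 17.3 at 4 h. All 3 libraries lay below those of 0 h from 1 h on, and the slope was -0.34 ± 0.033 (edgeR, adjusted p = 2.02e-07). RNF8, which acts before RNF168 in the same response, had 40.7, 47.8 and 38.6 CPM at 0 h and 30.4, 32.6 and 26.9 CPM at 4 h and a slope of -0.12 ± 0.024. RNF169, which reads the mark RNF168 leaves, had 47.3, 40.7 and 43.3 CPM at 0 h, 40.7, 35.8 and 37.9 at 1 h, 24.8, 22.7 and 21.8 at 2 h and 24.1, 25.8 and 26.2 at 4 h. Its 2 h and 4 h libraries overlapped, and 52.8% was left at 2 h against 58.1% at 4 h. RNF138, which acts at the ends of DNA breaks, fell at -0.21 ± 0.023. Among 20 genes of the ubiquitin response to double-strand breaks, 11 fell and 6 rose, with a median slope of -0.058. After RNF168 the most negative was BARD1, the partner of BRCA1 (-0.26 ± 0.035), and the most positive were L3MBTL1 (0.30 ± 0.076) and BABAM1 (0.13 ± 0.020).

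RNF111 and RNF4, of the same class, recognise SUMO-tagged proteins, and both fell. RNF111 (Arkadia), which also promotes TGF-beta signalling, had 42.8, 42.1 and 38.9 CPM at 0 h and 17.4, 15.4 and 13.0 CPM at 4 h, and every library after 0 h lay below those of 0 h. Its half-life was 2.66 h. RNF4, which acts on PML bodies, had 140.3, 152 and 134 CPM at 0 h and 78.7, 71.9 and 65.7 CPM at 4 h and a half-life of 3.94 h, with 96.1% left at 1 h. RNF2 (RING1B), the catalytic subunit of polycomb repressive complex 1, had 35.1, 40.2 and 38.7 CPM at 0 h and 21.1, 27.2 and 21.7 CPM at 4 h and a slope of -0.18 ± 0.024 (edgeR, adjusted p = 6.77e-06). RING1, its paralog, fell at -0.061 ± 0.021. Of 19 tested genes of this complex, 12 fell and 2 rose, with a median slope of -0.064. CBX8, which brings the complex to chromatin, fell at -0.85 ± 0.063, whereas PHC1 and PCGF5 rose at 0.085 ± 0.024 and 0.074 ± 0.019.

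RNF20 and RNF40 form the ligase of histone H2B, and neither was called. RNF20 had 95.2, 105 and 99.6 CPM at 0 h and 96.2, 105 and 96.3 CPM at 4 h, and the groups overlapped at every time. RNF40 had 163, 174 and 151 CPM at 0 h and 197, 195 and 165 CPM at 4 h and a slope of 0.040 ± 0.021, and it rose with the replicate block (edgeR, adjusted p = 0.00596). Of 13 genes of H2B ubiquitylation, 7 fell and 2 rose. The most negative were WAC (-0.42 ± 0.030), which links RNF20 and RNF40 to RNA polymerase, and LEO1 (-0.32 ± 0.036), and those that rose were ENY2 (0.068 ± 0.021) and UBE2A (0.064 ± 0.017), the E2 enzyme of this reaction.

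Protease-associated membrane ligases of the endosomal and lysosomal system gave 1 falling and 2 rising genes of 5. RNF130 had 46.7, 46.6 and 48.9 CPM at 0 h and 56.4, 55.8 and 57.6 CPM at 4 h and rose at 0.068 ± 0.024, a call lost without any 1 of the 3 libraries of 4 h. RNF167 had 54.1, 57.7 and 66.2 CPM at 0 h and 66.6, 67.2 and 74.3 CPM at 4 h and rose at 0.052 ± 0.021 (edgeR, adjusted p = 0.0386), and 5 of the 12 fits without 1 library, as well as the fit without a count filter, did not call it. RNF13 was not called, at 0.018 ± 0.022. RNF149 was not called, at -0.062 ± 0.029, and fell with the replicate block (edgeR, adjusted p = 0.00653). RNF150, at a mean of 21.3 counts, fell at -0.34 ± 0.093. Of the RNF114 subfamily, 3 tested genes were counted as a class of their own, and none of them was called. RNF114 had 93.8, 103 and 101 CPM at 0 h and 96.3, 105 and 88.0 CPM at 4 h. RNF166 had a slope of 0.036 ± 0.026, and RNF125, with a mean of 10.8 counts, had a slope of -0.081 ± 0.14. RNF138, compared with RNF114 as a related gene further below, was counted among the genes of chromatin and DNA damage and fell at -0.21. The counts of 0 among these classes were also 0 at an unadjusted p below 0.05 in edgeR and with DESeq2's Wald test.

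Several RNF genes outside these groups fell steeply. RNF219 (OBI1), which acts at replication origins, had 26.6, 32.4 and 26.9 CPM at 0 h and 5.80, 6.38 and 5.37 CPM at 4 h and a half-life of 1.64 h. RNF113A, a single-exon gene for a spliceosome protein, had 13.2, 14.4 and 11.8 CPM at 0 h, 12.6, 12.3 and 10.5 at 1 h, 8.73, 8.40 and 7.44 at 2 h and 2.49, 2.80 and 1.34 at 4 h, and 62.6% was left at 2 h against 17.1% at 4 h. RNF25 had 31.3, 29.8 and 26.3 CPM at 0 h, 27.7, 35.2 and 24.8 at 1 h, 16.4, 19.6 and 16.0 at 2 h and 9.59, 7.64 and 6.38 at 4 h. Its 1 h libraries overlapped those of 0 h, and 59.5% was left at 2 h. RNF146, which acts on poly(ADP-ribose)-tagged axin in Wnt signalling, had 25.0, 22.0 and 23.4 CPM at 0 h and 6.39, 8.31 and 7.72 CPM at 4 h and a half-life of 2.27 h. RNF115 was at the threshold (slope -0.050 ± 0.021, edgeR, adjusted p = 0.0492), and 9 of the 12 fits without 1 library did not call it. In Wnt receptor turnover 6 of 9 tested genes fell and 1 rose, with a median slope of -0.15. ZNRF3 (-0.56 ± 0.042), the ligase that removes Wnt receptors, and the receptor FZD7 (-0.54 ± 0.045) fell most and LRP5 (0.10 ± 0.021) rose. RNF43, the partner of ZNRF3, had a mean of 0.167 counts and could not be tested.

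The 12 RNF genes that rose had slopes from 0.050 to 0.29 log2 per hour. RNF207, a ligase known from heart muscle, had the highest slope of all members, 0.29 ± 0.063, but from low levels, with 1.38, 2.02 and 2.22 CPM at 0 h, 2.49, 2.65 and 3.72 at 1 h, 2.78, 4.25 and 2.51 at 2 h and 3.79, 4.54 and 5.48 at 4 h. Its libraries lay above those of 0 h at each later time. RNF123 (KPC1), which degrades the cell cycle inhibitor p27, had 24.5, 24.3 and 24.6 CPM at 0 h, 32.6, 25.0 and 31.8 at 1 h, 34.3, 36.4 and 31.3 at 2 h and 42.5, 39.1 and 38.2 at 4 h. Every later library exceeded the 0 h libraries, 163% of the 0 h level was reached at 4 h, and the slope was 0.17 ± 0.025 (edgeR, adjusted p = 2.09e-05). RNF187, a coactivator of JUN, had 217, 235 and 237 CPM at 0 h and 294, 323 and 312 CPM at 4 h. Its 4 h libraries did not overlap those of 0 h, and the slope was 0.11 ± 0.015. RNF10 had 203, 209 and 209 CPM at 0 h and 265, 245 and 256 CPM at 4 h and a slope of 0.077 ± 0.013. RNF215 and RNF141 rose at 0.15 ± 0.042 and 0.12 ± 0.030, and RNF181 at 0.078 ± 0.020. RNF7 (RBX2), the RING subunit of a cullin ligase, had 95.8, 100.5 and 91.0 CPM at 0 h and 112, 122 and 106 CPM at 4 h and rose at 0.074 ± 0.020. RNF44 had 76.8, 66.0 and 66.2 CPM at 0 h and 93.7, 82.1 and 82.6 CPM at 4 h and rose at 0.061 ± 0.024, which 5 of the 12 fits without 1 library did not call. On the scale of GAPDH plus ACTB the slopes of RNF187, RNF10, RNF181, RNF141, RNF7, RNF130, RNF167 and RNF44 were negative, at -0.027, -0.062, -0.061, -0.020, -0.064, -0.070, -0.086 and -0.078. RNF207, RNF123 and RNF215 kept positive slopes on that scale, at 0.15, 0.031 and 0.0099, without a call.

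In the TRIM genes, the NHL repeat ligase TRIM32, which is mutated in a limb-girdle muscular dystrophy, fell fastest. It had 37.0, 40.4 and 33.6 CPM at 0 h, 28.5, 30.2 and 25.6 at 1 h, 15.2, 13.8 and 11.4 at 2 h and 7.46, 6.67 and 5.71 at 4 h. The libraries of each time lay below all those of the time before, and the slope was -0.65 ± 0.042, a half-life of 1.53 h (edgeR, adjusted p = 4.11e-09). TRIM2, which targets neurofilament light chain, had 114, 103 and 127 CPM at 0 h and 76.2, 74.7 and 83.5 CPM at 4 h and a slope of -0.14 ± 0.022, and TRIM3 was not called, at 0.013 ± 0.035. TRIM13, a ligase anchored in the endoplasmic reticulum and lost with 13q14 deletions in leukaemia, had 24.1, 26.3 and 24.0 CPM at 0 h, 15.6, 18.9 and 16.3 at 1 h, 4.86, 8.40 and 7.73 at 2 h and 3.79, 3.58 and 7.61 at 4 h. The third replicate at 4 h was at about the level of its 2 h library while the other two were lower. The slope was -0.63 ± 0.071, and between -0.75 and -0.61 when 1 library was left out.

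PRY-SPRY proteins, the largest TRIM class, bind their targets through a C-terminal domain of that name. Of 17 tested, 9 fell and 2 rose. TRIM11 had 48.6, 46.2 and 39.1 CPM at 0 h and 15.3, 11.9 and 13.5 CPM at 4 h and a half-life of 2.14 h. TRIM68, a coactivator of the androgen receptor, had 5.01, 6.36 and 4.52 CPM at 0 h and 1.30, 1.84 and 1.12 CPM at 4 h and a half-life of 2.27 h. TRIM26 had 61.2, 60.2 and 62.0 CPM at 0 h, 65.0, 64.9 and 55.7 at 1 h, 50.01, 48.1 and 40.3 at 2 h and 26.9, 22.2 and 17.3 at 4 h. Its 1 h libraries overlapped those of 0 h, and 36.2% was left at 4 h. TRIM27, found as a fusion partner of the RET kinase, was the most abundant of the falling TRIM genes per length and had 86.6, 93.8 and 81.1 CPM at 0 h and 32.5, 30.3 and 33.7 CPM at 4 h. Its slope was -0.37 ± 0.026 (edgeR, adjusted p = 8.55e-09). TRIM4 fell at -0.26 ± 0.035. TRIM16, at -0.17 ± 0.026, may share counts with its copy TRIM16L, which had a mean of 145 counts.

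Among the genes of this class known from antiviral defence, TRIM25, which ubiquitylates the RNA sensor RIG-I, had 120.4, 114 and 94.5 CPM at 0 h and 124, 131 and 108 CPM at 4 h. The groups overlapped and the slope was 0.035 ± 0.026, not called, whereas with the replicate block it rose (edgeR, adjusted p = 0.0216). TRIM5, which binds retroviral capsids, was not called, with 15.6, 16.3 and 14.4 CPM at 0 h and 14.3, 18.2 and 15.8 CPM at 4 h. TRIM21, the cytosolic antibody receptor, had a mean of 12.6 counts and a slope of -0.28 ± 0.12 that was not called, while with the replicate block it fell (edgeR, adjusted p = 0.0419). TRIM14, an adaptor of the mitochondrial protein MAVS, rose from low levels, with 1.57, 1.16 and 1.86 CPM at 0 h, 1.91, 1.86 and 2.18 at 1 h, 2.08, 2.12 and 1.93 at 2 h and 3.43, 2.51 and 2.91 at 4 h, and a slope of 0.22 ± 0.053. Its 2 h and 4 h libraries lay above those of 0 h, and the lowest at 1 h was level with the highest at 0 h. TRIM41 had 26.1, 27.2 and 26.4 CPM at 0 h and 35.0, 31.4 and 33.9 CPM at 4 h and rose at 0.074 ± 0.019. Of 13 tested genes of RNA sensing by RIG-I, 5 fell (38.5%, all tested genes 32.1%) and 2 rose (15.4%, all tested genes 30.7%), with a median slope of -0.049. The kinase TBK1 fell at -0.33 ± 0.028 and the kinase IKBKE rose at 0.12 ± 0.038.

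The chromatin readers with a PHD finger and a bromodomain differed in direction. TRIM24, a coactivator of nuclear receptors that also degrades p53, had 58.1, 58.9 and 68.5 CPM at 0 h, 56.5, 57.1 and 58.8 at 1 h, 42.4, 46.1 and 48.7 at 2 h and 21.7, 22.1 and 18.2 at 4 h. The libraries of 1 h overlapped those of 0 h, and at 4 h 33.5% was left. Its slope was -0.40 ± 0.037 (edgeR, adjusted p = 1.19e-07). TRIM33, which acts on SMAD4 in TGF-beta signalling, had 87.1, 85.8 and 83.7 CPM at 0 h and 52.2, 62.5 and 53.1 CPM at 4 h and fell at -0.16 ± 0.020. TRIM28 (KAP1), the corepressor of KRAB zinc-finger proteins, had 736, 762 and 721 CPM at 0 h, 819, 843 and 752 at 1 h, 892, 848 and 756 at 2 h and 988, 984 and 874 at 4 h. No 4 h library overlapped those of 0 h, and the slope was 0.087 ± 0.016 (edgeR, adjusted p = 1.86e-04). With GAPDH plus ACTB as the scale this slope was -0.052. TRIM66 rose at 0.13 ± 0.056 from a mean of 58.8 counts, without a rise from 0 to 4 h in all 3 replicates. Its call was lost in 7 of the 12 fits without 1 library, with library totals and without a count filter. Of 14 genes of KRAB-TRIM28 repression, 4 fell (28.6%, all tested genes 32.1%) and 5 rose (35.7%, all tested genes 30.7%), shares near those of all genes. ATF7IP and MORC3 fell most, at -0.43 ± 0.025 and -0.35 ± 0.027, and CHD3 and HDAC1 rose most, at 0.17 ± 0.025 and 0.13 ± 0.024.

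TRIM genes without a C-terminal domain of these kinds gave 3 falling and 1 rising of 5. TRIM8, a regulator of cytokine signalling, had 43.6, 41.9 and 38.9 CPM at 0 h and 31.8, 27.8 and 25.3 CPM at 4 h and fell at -0.15 ± 0.024. TRIM44, whose 3′ UTR has 11622 bases, had 452, 446 and 421 CPM at 0 h and 498, 525 and 461 CPM at 4 h and rose at 0.046 ± 0.014. The fit without the second 4 h library did not call it. TRIM52 (mean 40.7 counts) was not called, and it overlaps an antisense gene, TRIM52-AS1, with a mean of 91.8 counts. TRIM37, a regulator of centrioles and peroxisomes, was not called, with 66.0, 75.7 and 73.9 CPM at 0 h and 80.6, 72.2 and 80.2 CPM at 4 h. Among the microtubule-binding COS-domain genes TRIM36 fell at -0.15 ± 0.064 (edgeR, adjusted p = 0.0494). Its call was lost in 8 of the 12 fits without 1 library, with DESeq2's Wald test and without a count filter. Its libraries of 0 and 4 h overlapped. The slope of TRIM46 was not called, at 0.076 ± 0.065, with 2.55, 3.28 and 3.46 CPM at 0 h and 4.26, 4.45 and 4.59 CPM at 4 h. At 4 h 0 of the 3 tested genes of this class were lower than at 0 h and 1 was higher.

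The single times show when the members moved. At 1 h 3 members were lower than at 0 h (3.03%, all tested genes 2.24%), RNF168 (72.7% left, edgeR, adjusted p = 0.0207) and RNF145 (74.4%, 0.0258) among them. In both edgeR and DESeq2's Wald test 0 members were higher at 1 h (5 at an unadjusted p below 0.05 in edgeR), where 0.349% of all genes were. With the replicate block 10 members were lower at 1 h, TRIM32 (edgeR, adjusted p = 1.61e-04), TRIM13 (9.36e-04) and RNF139 (0.00188) among them. The block also gave 5 higher members, RNF44 (edgeR, adjusted p = 0.00335) and TRIM28 (0.00645) among them. Without the block, neither RNF168 nor RNF145 was called in all 12 fits without 1 library. At 2 h 36 members were lower (36.4%, all genes 19.4%) and 3 higher (3.03%, all genes 10.8%), and with the replicate block 10 were higher. For the blocked counts at 1 and 2 h the shares of all tested genes are not given here. By 4 h 50 were lower (50.5%, all genes 31.6%) and 16 higher (16.2%, all genes 28.7%). The median change at 4 h was -0.20 log2 in RNF genes and -0.54 in TRIM genes, beside 0.028 in all tested genes.

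A straight line did not describe every course. The test of departure from a line called 5 members (5.05%, all genes 2.70%), and 29 with the replicate block. The share of all tested genes called with the block is not given here, so the 29 are not read as a trait of the members. RNF139 (edgeR, adjusted p = 0.00320) and RNF19B (0.0118) bent downward, with 81.5% and 101% left at 1 h and 9.47% and 12.8% at 4 h. TRIM24 bent the same way (0.0340), with 73.9% left at 2 h. RNF169 (0.00490) bent the other way and levelled off at 58.1% at 4 h. RNF139, RNF169 and RNF19B were called in all 12 fits without 1 library, and TRIM24 in 4. A half-life from one slope is therefore an average over the 4 h for these genes. The same holds for the members called with the block, TRIM11 (edgeR, adjusted p = 4.54e-05), RNF219 (3.87e-04) and TRIM32 (0.00231) among them.

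**Figure D2:**
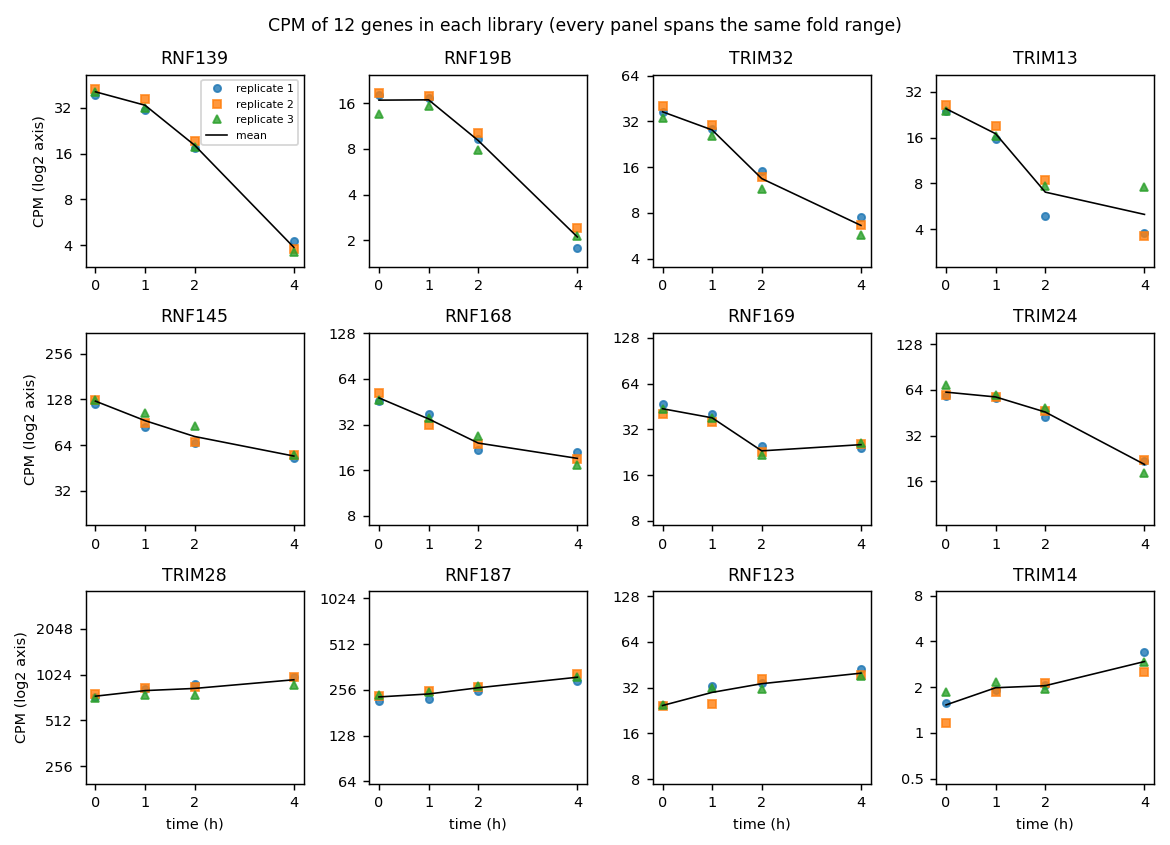
CPM on a log2 axis against time in h for 12 members, with a symbol for each replicate and a line through the means. RNF139, RNF19B and TRIM24 lose most after 1 h, RNF169 levels off after 2 h, and TRIM28, RNF187, RNF123 and TRIM14 go up relative to the other mRNAs.

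Related members were compared directly through the ratio of their counts in each library, which no scaling changes. The difference in slope (first gene minus second) was taken over the 3 replicates, and times were permuted within replicates in all 13824 arrangements (exact two-sided permutation test, Benjamini-Hochberg over 15 pairs; of 18 pairs listed, 3 had a gene under 10 counts). Of the 15 pairs, 12 differed. The widest gap was between the membrane ligases RNF139 and RNF145, -0.58 ± 0.045 log2 per hour (mean ± SD, n = 3, exact permutation, adjusted p = 0.00260). RNF144A exceeded RNF144B by 0.37 ± 0.095 (exact permutation, adjusted p = 8.14e-04). The bromodomain gene TRIM24 had a lower slope than TRIM33, with a difference of -0.25 ± 0.067. Against TRIM28, which rose on the TMM scale, the difference was -0.50 ± 0.051 (exact permutation, adjusted p = 8.14e-04 for both). Each of these differences had the same sign in all 3 replicates. In the DNA break response the slope of RNF8 exceeded that of RNF168 by 0.20 ± 0.014 (exact permutation, adjusted p = 0.00667).

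Smaller gaps were found between RNF114 and RNF138 (0.19 ± 0.023), RNF130 and RNF149 (0.13 ± 0.042), and RNF4 and RNF111 (0.12 ± 0.031). The TRIM pairs TRIM36 and TRIM46 and TRIM2 and TRIM3 differed by -0.23 ± 0.069 and -0.15 ± 0.067, and RNF115 and RNF126 by -0.089 ± 0.059. Adjusted p of these 6 pairs ranged from 8.14e-04 to 0.0195 (exact permutation). The 95% t interval over 3 replicates nevertheless held 0 for TRIM2 and TRIM3 (-0.32 to 0.015) and for RNF115 and RNF126 (-0.24 to 0.058). The steep pair RNF19A and RNF19B differed by 0.22 ± 0.15, past no threshold (exact permutation, adjusted p = 0.0562, 95% interval -0.14 to 0.59). RNF20 and RNF40 differed by -0.036 ± 0.024 (exact permutation, adjusted p = 0.127, 95% interval -0.094 to 0.022), and RNF13 and RNF167 by -0.037 ± 0.064 (exact permutation, adjusted p = 0.155, 95% interval -0.20 to 0.12).

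RING ligases outside both families were also called falling more often than rising. Of 77 tested genes on a list of 87 other RING-type ligases, 49 fell (63.6%) and 13 rose (16.9%), and the median slope was -0.12, against 50.5%, 17.2% and -0.11 in the RNF and TRIM genes together. SIAH1 (-0.74 ± 0.071) and TOPORS (-0.71 ± 0.040) were the most negative of that list, and MDM4 (0.21 ± 0.017) and MARCH2 (0.16 ± 0.047) the most positive. MDM2, the ligase of p53, fell at -0.22 ± 0.015.

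The 51 members under the minimum are accounted for as 21 RNF and 30 TRIM genes. Of these, 23 were listed at 0 in all libraries (10 RNF and 13 TRIM genes, TRIM6, TRIM34 and TRIM63 among them), and 28 had between 1 and 18 counts in their highest library. RNF175 and TRIM54, each with a mean of 9 counts, lay just under the minimum, and RNF125, with a mean of 10.8, just above it. Since CD99 was also listed at 0, a member at 0 is not shown to be silent.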

How the data were processed

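RNA of A673 cells (12 libraries) was made with a stranded poly(A) kit. The file deposited by the authors holds whole-number read counts by gene symbol, not normalized. The submitters' processing notes list FastQC, STAR and hg19. The paper describes Salmon on GRCh38 for this kit without naming these libraries, and the counting of overlapping genes, strand and paralogs is not given in the sources used here. All 12 columns were matched to samples by title. Replicates of a time differed by more than sampling noise (chi-square per degree of freedom 3.20 to 8.65).

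Genes averaging 10 counts or more per library were fitted with edgeR 4.0.16 (R 4.3.3; TMM, glmQLFit, glmQLFTest, time as a number or as 4 groups, no block). Standard errors were derived from F, and Benjamini-Hochberg adjustment covered 12032 genes, with a threshold of 0.05. Scripts were tested on simulated data. The common biological coefficient of variation was 0.0858, and p-values cover the spread between replicates labelled biological. Same-numbered libraries deviated together (r 0.283 to 0.597 over 18 comparisons across times, mean 0.412), so the numbers in the titles pair them. Where the block changes a slope call, the gene is named. Of the blocked calls at single times and of the departure from a line, only some counts and genes are given. Pair tests used log2 of counts plus 0.5 (Python 3.11.15, numpy 2.4.6). Transcripts and 3′ UTRs are the canonical ones of GENCODE version 44 (GRCh38), with renamed symbols matched through RefSeq.

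Named members are those that fell or rose most per family, key members of each class, the 3 highest per length, the 2 most curved and those of the pairs; further members named to complete a class were chosen after their values were seen. The members and lists were chosen with earlier results of these data known. Alternatives were other scalings, count filters, DESeq2 1.42.0's Wald test, a replicate block, other times and leaving out each library. A protein table was not used here, and 2 genes, with 1 pair of members, are not reported here by name.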

Additional observations from a re-analysis of the deposited data

How the results depend on the processing

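The direction of slopes near 0 rests on the scale, since no spike-in fixes the total mRNA, and 3 replicates limit the test of genes with few counts. The counting of strand, copies and overlapping genes is not given in the sources used here, and 4 times describe the shape of a course only coarsely. Where a value below differs from the report, the cause was not tested, apart from settings that hold fewer samples, fewer genes or another scale by construction. With DESeq2's size factors or its Wald test, each count of calls stayed within 1.5 times that reported.

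With library totals RNF genes gave 5 rising members and TRIM genes 2, with median slopes of -0.10 and -0.18 log2 per hour. At 4 h 7 members were then higher, and 8 departed from a straight line. With GAPDH plus ACTB as the scale the median of all tested genes moved from 0.0093 to -0.13. RNF genes then gave 52 falling and 0 rising members (median -0.20) and TRIM genes 31 and 0 (median -0.28). Both medians stayed below that of all genes. Another scale shifts all slopes by about the same amount, so it could not change this order. At 1 h 6 members were then lower, at 2 h 0 were higher, and at 4 h 81 were lower and 1 higher. Shares of all tested genes are not given here for these scales, so the counts are not read as a trait of the members. On that scale the slopes of 29 members turned from positive to negative, and 20 of them were called as falling. Among the named members they were -0.13 for RNF121, -0.10 for RNF166, -0.062 for RNF10, -0.10 for RNF126, -0.12 for RNF13, -0.070 for RNF130, -0.020 for RNF141, -0.086 for RNF167, -0.061 for RNF181, -0.027 for RNF187, -0.13 for RNF20, -0.098 for RNF40, -0.078 for RNF44 and -0.064 for RNF7. RNF213 was at -0.061 and TRIM46 at -0.063, and neither these nor RNF130, RNF141 and RNF187 were called on that scale. In the other TRIM genes the slopes were -0.10 for TRIM25, -0.052 for TRIM28, -0.12 for TRIM3, -0.10 for TRIM37, -0.065 for TRIM41, -0.092 for TRIM44 and -0.12 for TRIM5. RNF20 was also negative with library totals, at -0.035, and was called as falling there. So were RNF31, RNF114, RNF14, RNF149, RNF6, TRIM21, TRIM62 and TRIM7, and 59 members fell in all with library totals.

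Without a count filter the TRIM median was -0.10 and the difference in medians, TRIM minus RNF, was -0.049, and with a mean of at least 50 counts the difference was -0.058 and 10 members were higher at 4 h. From 0, 1 and 2 h alone there were 4 rising RNF genes, 12 falling and 0 rising TRIM genes, a TRIM median of -0.10 and a difference of -0.054. From 1, 2 and 4 h alone 2 TRIM genes rose and the TRIM median was -0.15. TRIM minus RNF stayed negative under every alternative tried. The other scalings could not test it, since they shift all slopes by about the same amount.

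With the replicate block 10 members were lower and 5 higher at 1 h, 10 were higher at 2 h and 29 departed from a straight line. The shares of all tested genes for these blocked counts are not given here. For the slopes the block added RNF149, RNF14, TRIM21, TRIM7 and TRIM62 to the falling and TRIM25, RNF40 and RNF213 to the rising members and changed no other slope call.

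Without 1 library at a time the RNF genes gave 29 to 31 falling and 9 to 13 rising members and a median from -0.077 to -0.052, and the TRIM genes 18 to 20, 4 to 5 and -0.15 to -0.12. The difference ranged from -0.090 to -0.056, the last without the second 4 h replicate. Members lower at 1 h numbered 1 to 3 (1 without the second replicate of 0 h or of 1 h) and those higher 0 to 1 (1 without the second 1 h replicate). At 2 h 30 to 38 were lower and 1 to 4 higher (1 without the first or second 0 h or the second 2 h replicate), and at 4 h 46 to 51 and 13 to 17. Departure from a line was called for 3 to 6 members, and for 3 without the first or second replicate of 0 h or 1 h, the second or the third of 2 h or the third of 4 h.

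Of the pairs, with 0, 1 and 2 h alone the differences were no longer past the threshold for RNF144A and RNF144B (0.34), RNF139 and RNF145 (-0.19), RNF130 and RNF149 (0.077), RNF115 and RNF126 (-0.057), TRIM24 and TRIM33 (-0.093), TRIM2 and TRIM3 (-0.047) and TRIM36 and TRIM46 (-0.14). With times permuted over all libraries, without the pairing, RNF19A and RNF19B passed it at the same 0.22 (100000 resamples, permutation test, adjusted p = 0.0356). Without 1 replicate number, RNF13 and RNF167 ranged from -0.066 to -0.0027 and passed without the third. Calls were lost for RNF115 and RNF126 (-0.12 to -0.061) without the second or the third, RNF4 and RNF111 (0.11 to 0.14) without the first or the second, TRIM2 and TRIM3 (-0.19 to -0.12) without the first or the third and TRIM36 and TRIM46 (-0.27 to -0.20) without the first or the second.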
